A study of Mus musculus with 2 samples.

Results

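*H19* and 6 other imprinted genes that act on growth, *Igf2*, *Meg3*, *Peg3*, *Grb10*, *Cdkn1c* and *Plagl1*, were followed through the cell classes of MC38 tumors from *Lmo7*+/+ and *Lmo7*-/- hosts. The genes were taken by symbol from the count tables, and all 7 of them were found among the 32285 genes listed. The members were chosen by measured values of these data, since *H19* had one of the lowest ratios between the libraries in macrophages in a first look at these data. The macrophage ratio of *H19* is therefore a description, and the genes listed as most like a member are descriptions too.

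An imprinted gene is copied mainly from the chromosome inherited from one parent, and DNA methylation set in the egg or sperm marks which one. In the mouse, *H19*, *Meg3*, *Grb10* and *Cdkn1c* are copied mainly from the maternal chromosome in most tissues, whereas *Igf2*, *Peg3* and *Plagl1* are copied from the paternal one. These genes are highly expressed in the fetus and the placenta and are turned down after birth in most tissues, and some of them are expressed again in tumors and in wound tissue.

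MC38 is a mouse colon cancer cell line, and it was grown under the skin of female mice of the C57BL/6 background. Single live cells were sorted from the dissociated tumors and captured on a 10x Genomics instrument. The first library came from *Lmo7*+/+ hosts and the other from hosts with a whole-body deletion of *Lmo7*, and the 2 barcoded libraries were pooled for sequencing. Only the host was deleted for *Lmo7*, whereas the implanted tumor cells were the same line in both genotypes. The number of mice behind each library is not given in the sources used here, and since there was 1 library per genotype no test between the genotypes was possible.

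*H19* and *Igf2* are neighbours on chromosome 7. On GRCm38 (GENCODE M21) *H19*, a long noncoding RNA, covers chr7:142575529-142578143 on the minus strand, and *Igf2*, which encodes insulin-like growth factor 2, covers chr7:142650766-142666816 on the same strand with 72622 bases between them. *Cdkn1c*, which encodes the cell cycle inhibitor p57, lies on the same chromosome at chr7:143458339-143461050 on the minus strand. *Peg3*, a gene for a zinc finger protein, lies at its other end at chr7:6703892-6730431 on the minus strand. *Meg3*, a long noncoding RNA, covers chr12:109541001-109571726 on the plus strand. *Grb10*, which encodes an adaptor that restrains insulin and insulin-like growth factor receptors, covers chr11:11930508-12038683 on the minus strand, and *Plagl1*, which encodes a zinc finger transcription factor, covers chr10:13060504-13131694 on the plus strand. *Igf2* overlaps *Igf2os* and *Cdkn1c* overlaps *Gm44732*, which lie on the opposite strand and were counted as genes of their own. Whether the counting used the strand is not given in the sources used here, so the counts of these overlapping pairs are uncertain.

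*H19*, *Igf2* and *Meg3* each hold at least 1 microRNA gene on their own strand. The mature microRNAs of *Mir675*, *Mir483* and *Mir770* are shown, from RefSeq on GRCm38.p6, because they are the short products cut from the RNAs whose counts are given here. Capitals mark the seed, bases 2 to 8 counted from the 5′ end, which pairs with target RNAs. None of the 6 seeds was found in another of the 1679 mature mouse microRNAs in the RefSeq table. The counts measured the long RNAs and not the mature microRNAs themselves.
miR-675-5p (*H19*, chr7:142577112-142577133, minus strand): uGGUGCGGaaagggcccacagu
miR-675-3p (*H19*, chr7:142577078-142577099, minus strand): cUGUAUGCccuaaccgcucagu
miR-483-5p (*Igf2*, chr7:142654968-142654989, minus strand): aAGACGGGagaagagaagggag
miR-483-3p (*Igf2*, chr7:142654932-142654952, minus strand): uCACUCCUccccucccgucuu
miR-770-5p (*Meg3*, chr12:109563710-109563731, plus strand): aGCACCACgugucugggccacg
miR-770-3p (*Meg3*, chr12:109563744-109563765, plus strand): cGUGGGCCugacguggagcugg

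The deposited values are counts of UMIs, tags that mark single captured RNA molecules. Of 16208 and 15163 droplets, 13542 cells (*Lmo7*+/+) and 11860 cells (labelled *Lmo7*-/-) passed the filters, with medians of 4535.5 and 4304.5 UMIs per cell. The libraries shared 279 droplet barcodes, 175 of them among kept cells. *Lmo7* itself had 14.0 and 10.4 counts per 1000000 counts (CPM) over all kept cells. In host cells it had 15 and 16 counts in macrophage-like cells and 18 and 12 counts in endothelial-like cells, the latter at 36.4 and 28.9 CPM with a log2 ratio of -0.33 (-1.52 to 0.80). These values do not show a loss of *Lmo7* RNA, and the genotype of the library labelled *Lmo7*-/- rests on its label. Below, a level is the CPM of the summed counts of a cell class with its 95% exact Poisson interval, and a log2 ratio is the level in the library labelled *Lmo7*-/- over that in the *Lmo7*+/+ library with its 95% exact interval. Counting error is all that these intervals cover, since each UMI is treated as independent and mice were not replicated. They leave out the spread between cells, so they are too narrow where few cells hold many UMIs of a gene. A gene was compared when it had at least 20 counts over both libraries, and called when its levels were at least 2-fold apart.

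Cells were grouped without the use of the 7 members and of 34 other imprinted genes listed for comparison. Tumor cell-like cells numbered 5628 in the *Lmo7*+/+ library and 4241 in the other, macrophage-like cells 4046 and 4517, and fibroblast-like cells 119 and 92. All 12 macrophage markers and all 11 fibroblast markers were at 5 CPM or more in the class named for them, whereas 8 of the 19 tumor markers were in tumor cell-like cells, and the epithelial genes *Krt5*, *Krt7* and *Cldn4* were at or near 0 there. A further cluster of 1396 and 895 cells, led by *Enpp2* and *Serpine2*, was left unnamed because collagen genes were among its leading genes. Its expression by chromosome, taken against that of the immune cells, followed that of tumor cell-like cells (r = 0.95 over 20 chromosomes, across chromosomes of summed cells), whereas that of fibroblast-like cells did not (r = 0.05). The lowest chromosome median of tumor cell-like cells was that of chromosome 7, at -0.40 on the log2 scale, against -0.44 in the Enpp2 Serpine2 cluster and -0.08 in fibroblast-like cells, and that chromosome holds *H19*, *Igf2*, *Cdkn1c* and *Peg3*. Another cluster of 693 and 528 cells, led by *Kcnq1ot1*, itself an imprinted gene, and *Ogt*, was also left unnamed. It held markers of both tumor cells and macrophages, and its expression by chromosome followed that of tumor cell-like cells too (r = 0.98).

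*H19* was the most counted member, and its RNA sat in few cells. It had 6311 counts in all droplets, 4555 of them in the *Lmo7*+/+ library and 1756 in the library labelled *Lmo7*-/-. In the *Lmo7*+/+ library the Enpp2 Serpine2 cluster held 41.0% of the *H19* counts, tumor cell-like cells 24.0% and fibroblast-like cells 23.1%, although the fibroblast-like cells were 0.734% of the droplets. In the library labelled *Lmo7*-/- the same groups held 51.1%, 27.2% and 5.30%. Over all kept cells the *H19* level was 46.6 CPM (45.2 to 48.0) against 21.7 CPM (20.7 to 22.8).

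Within each library the order of the 3 main classes was the same. *H19* was highest in fibroblast-like cells, with 1674 CPM (1575 to 1778) in the *Lmo7*+/+ library and 172 CPM (139 to 211) in the other. Tumor cell-like cells followed with 22.1 CPM (20.8 to 23.5) and 13.3 CPM (12.1 to 14.5), and macrophage-like cells had 9.11 CPM (7.90 to 10.5) and 1.36 CPM (0.921 to 1.95). No interval of one of these classes overlapped that of another in the same library, though the intervals leave out the spread between cells. The Enpp2 Serpine2 cluster lay between fibroblast-like and tumor cell-like cells, with 153 CPM (146 to 160) and 111 CPM (104 to 118). In the Kcnq1ot1 Ogt cluster the levels were 35.6 CPM (30.2 to 41.7) and 22.3 CPM (18.0 to 27.4). It held 153 and 91 *H19* counts, with a log2 ratio of -0.67 (-1.06 to -0.29).

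**Figure D1:**
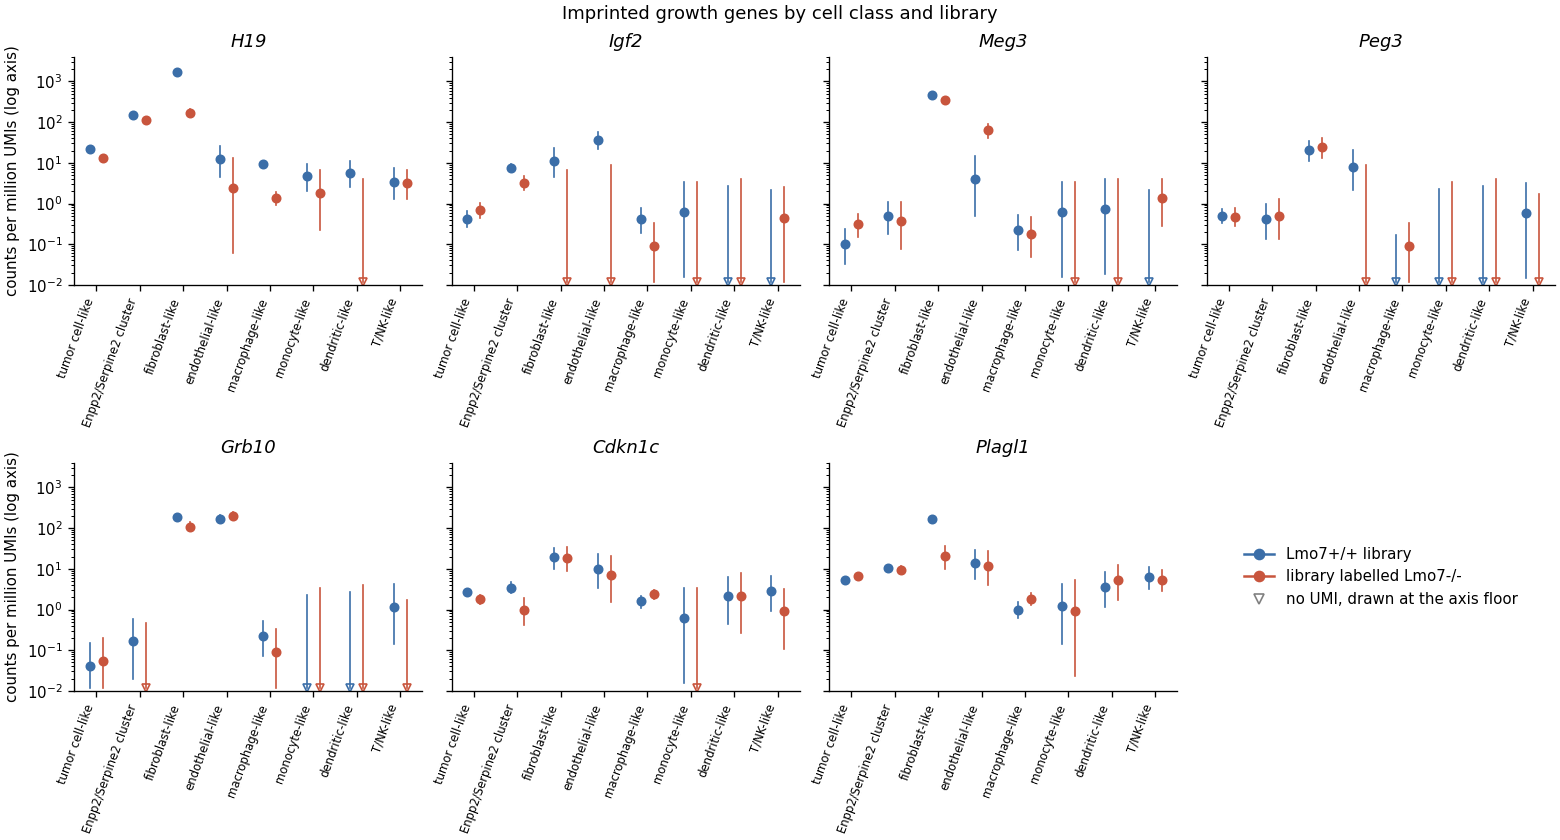
Level of each member (CPM, log axis) by cell class, with 1 point per library and 95% Poisson intervals for counting error. *H19*, *Meg3*, *Peg3*, *Cdkn1c* and *Plagl1* had their highest *Lmo7*+/+ level among these classes in fibroblast-like cells, *Igf2* in endothelial-like cells at 36.4 CPM, and *Grb10* was at 186 CPM in fibroblast-like and 166 CPM in endothelial-like cells.

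In tumor cell-like cells *H19* had 1092 counts in 345 cells of the *Lmo7*+/+ library and 477 counts in 143 cells of the library labelled *Lmo7*-/-. The log2 ratio was -0.74 (-0.90 to -0.58), which is short of 2-fold. The cells with the most *H19* had 37, 36 and 35 UMIs in the *Lmo7*+/+ library and 76, 39 and 25 in the other, and these 3 cells held 9.89% and 29.4% of the counts. Without the 3 highest cells of each library the log2 ratio was -1.09. With 1500 UMIs drawn from each cell that held as many (called thinning below), 2.54% (2.12 to 3.03) of 4795 cells and 1.08% (0.772 to 1.48) of 3598 cells held *H19*, against 6.13% and 3.37% before thinning.

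The tumor cell-like class was made up of 3 clusters, and all had less *H19* in the library labelled *Lmo7*-/-. In the cycling cluster led by *Cdc20* and *Ccnb1* the levels were 15.3 and 11.5 CPM, a log2 ratio of -0.41 (-0.64 to -0.18). In the cluster led by *Cdsn* and by *Car9*, a carbonic anhydrase gene that low oxygen turns on, they were 20.1 and 10.4 CPM, a log2 ratio of -0.96 (-1.26 to -0.66). The cluster with *Hba-a2* and *Hba-a1*, hemoglobin genes, at its head had the highest levels of the 3, 106 and 50.1 CPM, with a log2 ratio of -1.08 (-1.43 to -0.75). Single cells weighed on these values, since 1 cell held 76 of the 250 counts of the cycling cluster and 1 cell 39 of the 100 counts of the hemoglobin gene cluster in the library labelled *Lmo7*-/-, against 37 of 412 and 36 of 283 in the *Lmo7*+/+ library.

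In the Enpp2 Serpine2 cluster *H19* had 1868 counts in 231 cells and 898 counts in 152 cells, and the log2 ratio was -0.46 (-0.58 to -0.35). The share of cells with *H19* was 16.5% (14.6 to 18.6) and 17.0% (14.6 to 19.6), and 9.19% and 8.99% after thinning. The highest cells had 158, 152 and 138 UMIs in the *Lmo7*+/+ library and 73, 55 and 54 in the other. With this cluster added to the tumor cell-like class the *H19* levels were 48.1 and 31.2 CPM, a log2 ratio of -0.62 (-0.72 to -0.53).

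In fibroblast-like cells *H19* was 9.73-fold lower in the library labelled *Lmo7*-/-. It had 1054 counts in 37 of 119 cells of the *Lmo7*+/+ library and 93 counts in 14 of 92 cells of the other, a log2 ratio of -3.28 (-3.60 to -2.97). Among the shallower cells, those up to the median depth of their library, the log2 ratio was -1.35. Of the *Lmo7*+/+ cells, 21 held 10 or more *H19* UMIs and together 1014 of the counts, and the highest had 126, 117 and 115 UMIs. In the library labelled *Lmo7*-/- 4 cells reached 10 UMIs, and the highest had 19, 16 and 13. The share of cells with *H19* was 31.1% (22.9 to 40.2) against 15.2% (8.58 to 24.2), and 23 of 92 cells (16.6% to 35.1%) against 12 of 77 cells (8.32% to 25.6%) after thinning, so the intervals of the shares overlapped. The shares expected over all draws of that thinning were 25.2% and 11.0%. When cells were thinned to 1000 UMIs, the shares were 24.4% (17.0 to 33.1) and 7.61% (3.11 to 15.1), and these intervals did not overlap. The cells of the *Lmo7*+/+ library were shallower, with a median of 2963 against 4434 UMIs. Markers of other cells were also counted in the class: the summed macrophage markers were at 1013 and 1397 CPM, the summed pericyte markers at 1770 and 1409 CPM, and the summed tumor markers at 92.1 and 111 CPM, with 9 and 8 of the 19 tumor markers at 0. In cells without any tumor marker UMI the log2 ratio of *H19* was -2.55, and without the subclusters led by *Rgs5* and *H2-Ab1*, which held pericyte and macrophage genes, it was -3.18.

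Fibroblast-like cells fell into 5 subclusters, and *H19* was concentrated in those with matrix genes. In the subcluster led by *Eln*, the gene for elastin, *H19* was at 4114 CPM (3760 to 4491) in 22 *Lmo7*+/+ cells and at 699 CPM (556 to 868) in 22 cells of the other library. In the one led by *Nrep* and *Col15a1* it was at 1879 CPM (1712 to 2057) in 40 cells and 74.7 CPM (32.3 to 147) in 16 cells. In the subcluster led by *Saa3* and *Ptx3*, which also held *Pi16*, 45 counts in 31 cells stood against 1 count in 36 cells. *H19* was lower in the library labelled *Lmo7*-/- in each of these 3 subclusters. A subcluster led by *H2-Ab1* and with macrophage genes such as *C1qc* had 43 and 2 *H19* counts, 40 of the former in 1 cell. The subcluster led by *Rgs5*, a pericyte gene, had no *H19* count in its 15 and 6 cells. The libraries differed in the mix of subclusters. With the cells of the library labelled *Lmo7*-/- weighted to the *Lmo7*+/+ mix, *H19* came to 0.880 UMIs per cell. It was 1.01 as measured there and 8.86 in the *Lmo7*+/+ library. These values are not scaled for depth, and the part of the mix in the *H19* difference was not tested.

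**Figure D2:**
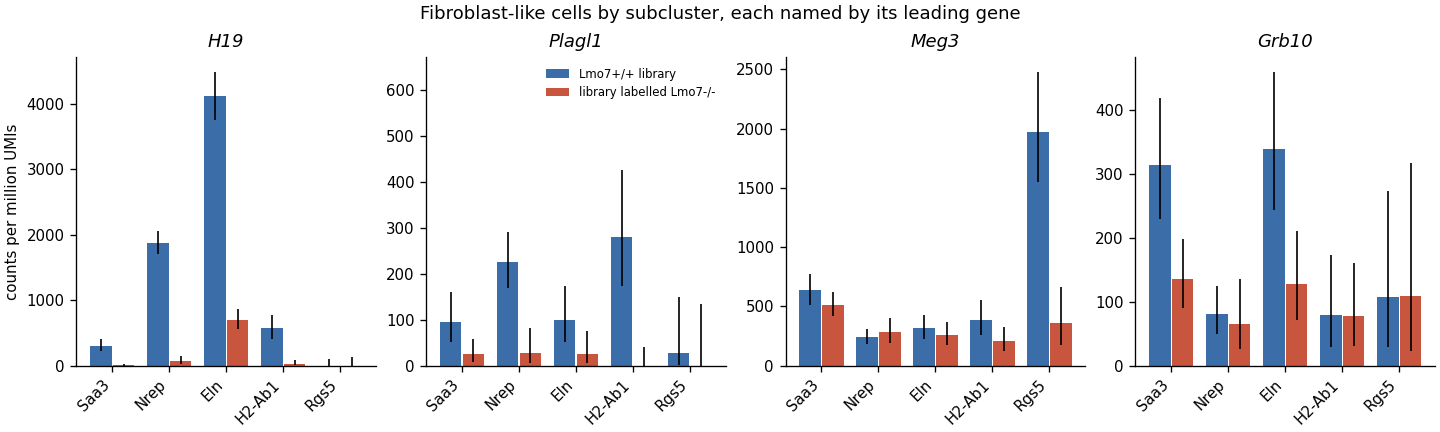
Levels of *H19*, *Plagl1*, *Meg3* and *Grb10* (CPM, linear axis from 0) in 5 fibroblast subclusters, each named by its leading gene, with bars per library and 95% Poisson intervals. *H19* was highest in the Eln subcluster, at 4114 and 699 CPM, and *Meg3* in the Rgs5 subcluster of the *Lmo7*+/+ library, at 1975 CPM.

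In macrophage-like cells *H19* had 202 counts in 79 of 4046 cells of the *Lmo7*+/+ library and 30 counts in 28 of 4517 cells of the other, and the level was 6.68-fold lower, a log2 ratio of -2.74 (-3.34 to -2.18). In the *Lmo7*+/+ library 3 cells with 66, 26 and 19 UMIs held 55.0% of the counts, and the next cell had 4. In the library labelled *Lmo7*-/- no cell had more than 2. Without the 3 highest cells of each library the log2 ratio was -1.85, and in the shallower cells it was -1.10. The 3 cells lay in the main macrophage cluster, held 170, 256 and 101 UMIs of macrophage markers, 0 UMIs of fibroblast markers and 0, 1 and 2 UMIs of tumor markers, and were not marked as doublets.

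Few macrophage-like cells held *H19*, and after thinning the interval of their share overlapped that of T/NK-like cells. After thinning to 1500 UMIs, 0.573% (0.355 to 0.875) of 3662 *Lmo7*+/+ macrophage-like cells and 0.223% (0.102 to 0.422) of 4043 cells of the other library held *H19*. T/NK-like cells, taken as a class that should lack *H19*, gave 0.704% (0.145 to 2.04) of 426 cells and 0.371% (0.0450 to 1.33) of 539 cells. Before thinning the macrophage shares were 1.95% and 0.620% at median depths of 4997 and 4332 UMIs, and the T/NK shares 0.868% and 0.546% at 2157.5 and 2218 UMIs. The shares expected over all draws of the thinning were 0.693% and 0.198% in macrophage-like and 0.606% and 0.435% in T/NK-like cells. The T/NK-like shares rest on 3 and 2 cells after thinning, and the part of free RNA in the macrophage values was not tested. Per count of the summed tumor markers, *H19* had 0.174 (0.149 to 0.203) and 0.0309 (0.0207 to 0.0444) counts in macrophage-like cells. Tumor cell-like cells had 0.0910 (0.0855 to 0.0969) and 0.0414 (0.0377 to 0.0454), and the Enpp2 Serpine2 cluster 0.648 and 0.544. T/NK-like cells had 0.0278 (0.0101 to 0.0615) and 0.0202 (0.00805 to 0.0420), on 6 and 7 *H19* counts. The *Lmo7*+/+ macrophage value includes the 3 cells with 66, 26 and 19 UMIs. In the library labelled *Lmo7*-/- the intervals of macrophage-like, tumor cell-like and T/NK-like cells overlapped.

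**Figure D3:**
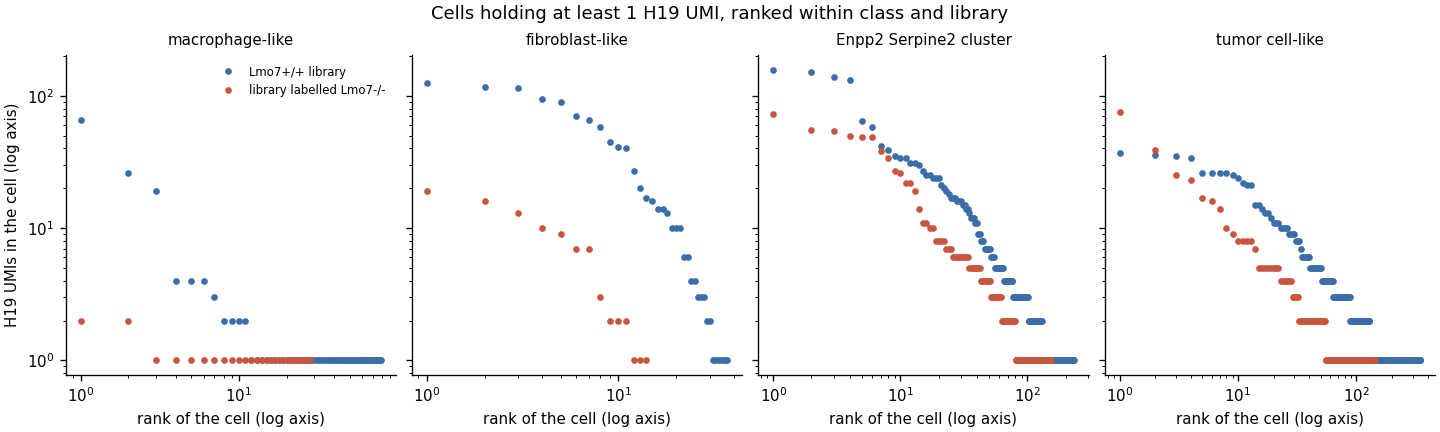
Cells with at least 1 *H19* UMI, ranked by *H19* UMIs within each class and library (both axes log). The macrophage-like panel drops from 66, 26 and 19 UMIs to 4 in the *Lmo7*+/+ library, whereas the fibroblast-like panel declines gradually from 126 UMIs over 37 cells.

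In the remaining host classes *H19* was low. Endothelial-like cells had 6 and 1 counts, monocyte-like cells 8 and 2, dendritic-like cells 8 and 0, and T/NK-like cells 6 and 7. Mast-like cells, of which 28 were captured and which are named here after their values were seen, had more. Their 7 *Lmo7*+/+ cells held 14 *H19* counts in 4 cells, and the 21 cells of the other library held 58 counts in 7 cells, which gave 477 CPM (261 to 801) and 1036 CPM (787 to 1340) and a log2 ratio of 1.12 (0.26 to 2.08). The summed mast markers differed in the same direction, at 34545 and 81664 CPM. The part of this difference in the *H19* and *Igf2* values of mast-like cells was not tested.

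The number of members at least 2-fold apart differed by class. In tumor cell-like cells 5 of the 7 members passed 20 counts and 0 were called, where 2.47% of all 13738 genes compared were called, 1.22% as lower and 1.25% as higher in the library labelled *Lmo7*-/-. In fibroblast-like cells 6 members passed and 2, *H19* and *Plagl1*, were called as lower, where 8.41% of 6649 genes were called, 4.96% as lower and 3.44% as higher. In macrophage-like cells 3 members passed and only *H19* was called, where 2.76% of 12339 genes were called, 1.55% as lower and 1.21% as higher. That call was set in advance, since the members were chosen by the macrophage ratio of *H19*, so it cannot be weighed against these shares. In the Enpp2 Serpine2 cluster 4 members passed and *Igf2* and *Cdkn1c* were called as lower, where 4.2% of 12287 genes were called, 2.26% as lower and 1.94% as higher. In endothelial-like cells *Meg3* and *Grb10* passed and *Meg3* was called as higher, where 6.81% of 6283 genes were called, 3.72% as lower and 3.09% as higher. In mast-like cells *H19* and *Igf2* passed and both were called as higher, where 19.3% of 636 genes were called, 8.65% as lower and 10.7% as higher. In T/NK-like cells *Plagl1* passed and was not called, where 3.09% of 9719 genes were called, 2.02% as lower and 1.07% as higher. The median log2 ratio of the members that passed was -0.10 in tumor cell-like, -0.59 in fibroblast-like, 0.58 in macrophage-like and -0.84 in Enpp2 Serpine2 cells, beside -0.04, -0.07, -0.10 and -0.04 over all genes compared.

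**Figure D4:**
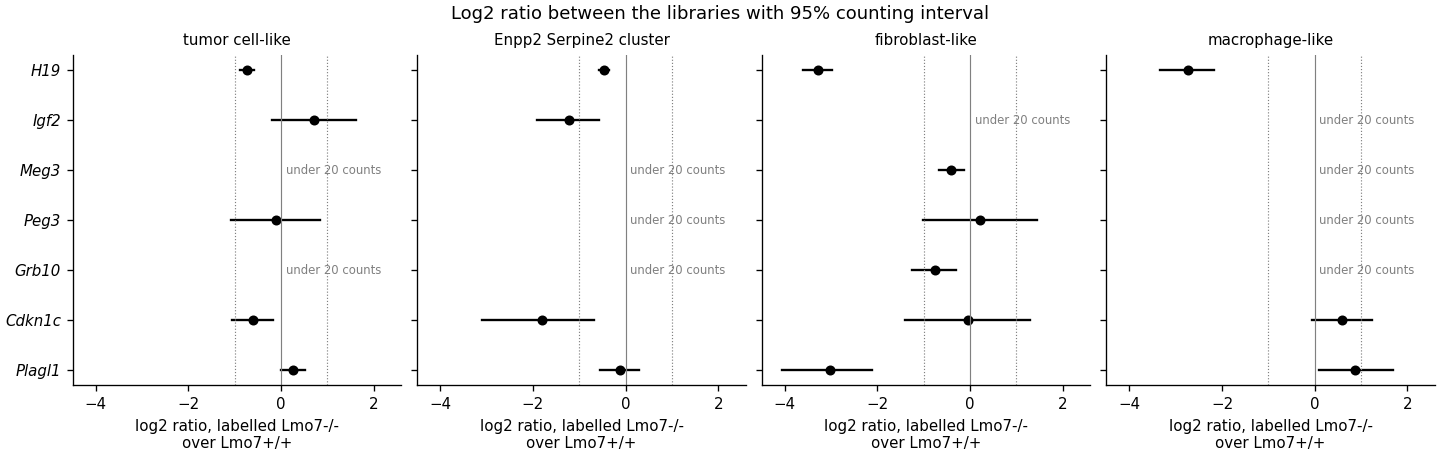
Log2 ratio of each member, the library labelled *Lmo7*-/- over the *Lmo7*+/+ library, with 95% counting intervals in 4 groups of cells (dotted lines at 2-fold, members under 20 counts not drawn). *H19* lies at -3.28 in fibroblast-like and -2.74 in macrophage-like cells, and *Plagl1* at -3.02 in fibroblast-like and 0.87 in macrophage-like cells.

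*Igf2*, the growth factor gene beside *H19*, was counted only 262 times in all droplets. The Enpp2 Serpine2 cluster held most of it in the *Lmo7*+/+ library, with 91 counts in 36 of 1396 cells against 26 counts in 18 of 895 cells, or 7.45 and 3.21 CPM and a log2 ratio of -1.21 (-1.90 to -0.57). Single cells weighed on this ratio, since the highest cells held 17 and 4 UMIs. In the *Lmo7*+/+ library 2 cells of the cluster held 10 or more, against 0 in the other. Tumor cell-like cells had 21 and 25 counts, or 0.426 and 0.695 CPM, a log2 ratio of 0.71 (-0.19 to 1.62) whose interval held 0. With the Enpp2 Serpine2 cluster added to them the direction turned, to -0.65. Fibroblast-like cells had 7 counts in 5 cells of the *Lmo7*+/+ library and 0 in the other. Endothelial-like cells had 18 counts in 4 *Lmo7*+/+ cells, 17 of them in 3 cells, and 0 in 75 cells of the other library. With a floor of 3 counts in place of that 0, the *Igf2* level was 5.04-fold lower. This value leaves out the counting error of the 18 counts and is not a lower bound. The exact interval of the log2 ratio reached up to -1.89, and it leaves out the spread between cells. Mast-like cells had 5 and 31 counts, or 171 and 554 CPM, and a log2 ratio of 1.70 (0.32 to 3.42). These counts lay in 3 of 7 and 4 of 21 cells. In the library labelled *Lmo7*-/- 2 mast-like cells held 10 or more *Igf2* UMIs, and the highest held 13.

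*H19* and *Igf2* were found together in few cells. In the Enpp2 Serpine2 cluster of the *Lmo7*+/+ library *Igf2* was counted in 14 of 231 cells with *H19*, 6.06% (3.35 to 9.96), and in 22 of 1165 cells without it, 1.89% (1.19 to 2.85). In the library labelled *Lmo7*-/- the numbers were 7 of 152 cells and 11 of 743 cells. Cells with *H19* were deeper, with medians of 9461 against 5446 UMIs and 9382 against 6783 UMIs, and the part of depth was not tested. In *Lmo7*+/+ fibroblast-like cells all 5 cells with *Igf2* also held *H19*.

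*Meg3* was counted mainly in stromal cells, and among the fibroblast-like cells of the *Lmo7*+/+ library its level was highest in the Rgs5 subcluster. Fibroblast-like cells had 294 counts in 74 of 119 *Lmo7*+/+ cells and 190 counts in 51 of 92 cells of the other library, or 467 CPM (415 to 524) and 352 CPM (303 to 405). Tumor cell-like cells had 5 and 11 counts, or 0.101 and 0.306 CPM, and the fibroblast level was 4609-fold and 1149-fold that of tumor cell-like cells. The log2 ratio in fibroblast-like cells was -0.41 (-0.68 to -0.14). The largest difference among the subclusters was in the Rgs5 subcluster, where 74 counts in 10 of 15 cells stood against 10 counts in 4 of 6 cells, or 1975 and 362 CPM. Without the Rgs5 and H2-Ab1 subclusters the log2 ratio was 0.04.

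Endothelial-like cells differed in *Meg3* in the other direction. They had 2 counts in 2 of 99 *Lmo7*+/+ cells and 26 counts in 8 of 75 cells of the library labelled *Lmo7*-/-, which gave 4.05 and 62.6 CPM and a log2 ratio of 3.95 (1.95 to 7.07). The interval is wide because the *Lmo7*+/+ value rests on 2 counts, and the endothelial cell with the most *Meg3* had 5 UMIs. Markers of other stromal cells were also counted in this class and differed in the same direction. The summed pericyte markers were at 557 and 995 CPM and the summed fibroblast markers at 812 and 1407 CPM. The part of such RNA in the *Meg3* values was not tested.

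*Grb10* was counted in stromal cells and was nearly absent elsewhere. Fibroblast-like cells had 117 counts in 46 cells and 59 counts in 31 cells, or 186 and 109 CPM, and the log2 ratio was -0.77 (-1.24 to -0.30). The lower level was seen in the Saa3 subcluster, at 314 and 136 CPM, and the Eln subcluster, at 339 and 128 CPM, whereas the Nrep subcluster had 80.3 and 65.4 CPM with overlapping intervals. Endothelial-like cells had 82 counts in each library, or 166 CPM in 99 cells and 198 CPM in 75 cells, with a log2 ratio of 0.25 (-0.21 to 0.71). The fibroblast log2 ratio was -0.18 in the shallower cells and -1.63 in cells without a tumor marker UMI. Tumor cell-like cells had 2 counts in each library.

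*Peg3* was low, and its intervals between the libraries held 0 in fibroblast-like and tumor cell-like cells. Fibroblast-like cells had 13 counts in each library, or 20.6 and 24.1 CPM, with a log2 ratio of 0.22 (-1.01 to 1.45). The direction turned in cells without a tumor marker UMI, at -1.41, and in the shallower cells, at -2.10. Among tumor cell-like cells 25 and 17 counts gave 0.507 and 0.473 CPM and a log2 ratio of -0.10 (-1.08 to 0.85), intervals that reach a 2-fold difference.

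*Cdkn1c*, the cell cycle inhibitor gene, was lower in tumor cell-like cells of the library labelled *Lmo7*-/-. It had there 134 counts in 125 cells and 64 counts in 54 cells, or 2.72 and 1.78 CPM, with a log2 ratio of -0.61 (-1.06 to -0.17). In the Enpp2 Serpine2 cluster 42 and 8 counts gave 3.44 and 0.988 CPM and a log2 ratio of -1.80 (-3.10 to -0.69). Fibroblast-like cells had 12 and 10 counts, or 19.1 and 18.5 CPM, and the log2 ratio there ranged from -1.32 to 0.83 over the alternatives. Macrophage-like cells had 35 and 52 counts, or 1.58 and 2.37 CPM, with a log2 ratio of 0.58 (-0.06 to 1.24), and 11 of the 52 counts lay in 1 cell.

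*Plagl1* was 8.11-fold lower in fibroblast-like cells of the library labelled *Lmo7*-/-. It had 104 counts in 37 *Lmo7*+/+ cells and 11 counts in 8 cells of the other library, or 165 CPM (135 to 200) and 20.4 CPM (10.2 to 36.4), with a log2 ratio of -3.02 (-4.07 to -2.12), which was -1.68 in the shallower cells. The highest *Lmo7*+/+ cell held 17 of the counts, and the highest of the other library 2. In the Nrep subcluster the levels were 225 and 28.0 CPM, in the Saa3 subcluster 95.5 and 25.2 CPM, and in the Eln subcluster 99.1 and 25.6 CPM, and the intervals of the last 2 overlapped. In the H2-Ab1 subcluster 21 counts in 7 cells stood against 0. Among *Lmo7*+/+ fibroblast-like cells *Plagl1* was counted in 19 of 37 cells with *H19*, 51.4% (34.4 to 68.1), and in 18 of 82 cells without it, 22.0% (13.6 to 32.5), at median depths of 3568 and 2762 UMIs. *Meg3* was counted in 64.9% and 61.0% of the same cells.

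In the other groups where it passed 20 counts, *Plagl1* was less than 2-fold apart. In tumor cell-like cells 269 and 233 counts gave 5.45 and 6.48 CPM and a log2 ratio of 0.25 (-0.01 to 0.51), and in the Enpp2 Serpine2 cluster the levels were 10.2 and 9.39 CPM, a log2 ratio of -0.13 (-0.56 to 0.30). Macrophage-like cells had 22 and 40 counts, or 0.993 and 1.82 CPM, with a log2 ratio of 0.87 (0.09 to 1.70). That ratio ranged from 0.13 to 1.09 over the alternatives, and 7 of the 40 counts lay in 1 cell. T/NK-like cells had 6.35 and 5.43 CPM on 11 and 12 counts, with a log2 ratio of -0.23 (-1.53 to 1.10). Endothelial-like cells, with 7 and 5 counts, did not pass.

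*Mest*, an imprinted gene of the comparison list that is copied from the paternal chromosome, was lower in fibroblast-like cells beside *H19* and *Plagl1*. Its levels were 178 and 14.8 CPM, with 112 and 8 counts and a log2 ratio of -3.59 (-4.83 to -2.56), and in the Nrep subcluster they were 393 and 28.0 CPM. The promoters of *Plagl1* and *Mest* are shown, from RefSeq on GRCm38.p6, because both genes had low ratios in the same class and because imprints are kept as methylation at CpG sites. Each covers 250 bases before and 50 bases after a transcription start, and capitals mark CG. *Plagl1* had 26 CG in this window, a number that 16.9% of the 32851 promoters of that length reached, and *Mest* had 17, which 31.4% reached, beside a median of 7. The table lists 2 further starts of *Mest*. The window of the first, 3 bases from the one shown, also had 17 CG, and that of the other, chr6:30733256-30733555, had 8, which 48.65% reached. The RefSeq table held a promoter for 5 of the 7 members. Methylation was not measured.
*Plagl1* (chr10:13090582-13090881, plus strand): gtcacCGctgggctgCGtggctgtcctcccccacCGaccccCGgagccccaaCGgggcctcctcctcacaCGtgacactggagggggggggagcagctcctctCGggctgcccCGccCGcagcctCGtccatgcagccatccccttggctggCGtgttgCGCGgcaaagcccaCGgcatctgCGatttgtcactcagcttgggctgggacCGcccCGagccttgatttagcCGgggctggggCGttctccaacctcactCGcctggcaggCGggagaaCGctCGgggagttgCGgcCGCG
*Mest* (chr6:30737800-30738099, plus strand): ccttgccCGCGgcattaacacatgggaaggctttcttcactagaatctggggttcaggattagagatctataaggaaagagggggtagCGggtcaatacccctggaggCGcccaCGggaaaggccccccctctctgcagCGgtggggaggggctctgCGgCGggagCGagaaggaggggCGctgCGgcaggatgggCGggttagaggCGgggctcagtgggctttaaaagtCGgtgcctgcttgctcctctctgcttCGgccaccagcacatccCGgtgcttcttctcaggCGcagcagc

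Among 34 other imprinted genes, 11 passed 20 counts in fibroblast-like cells and 2, *Mest* and *Dlk1*, were called as lower, beside the 4.96% of all genes called as lower in that class, with a median log2 ratio of -0.21. *Dlk1*, a gene for a Notch-related membrane protein of the *Meg3* locus, was at 73.1 and 24.1 CPM on 46 and 13 counts. *Rian*, a noncoding RNA of the same locus, was at 195 and 141 CPM with a log2 ratio of -0.47 (-0.91 to -0.05). The imprinted genes with the highest levels, *Gnas* at 2270 and 1958 CPM and *H13* at 145 and 167 CPM, were not called.

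In tumor cell-like cells 20 of the 34 genes passed and 2 were called, both as higher, beside 1.25% of all genes there. *Sgce*, the gene for epsilon-sarcoglycan, was at 1.64 and 5.01 CPM with a log2 ratio of 1.61 (1.22 to 2.01), and its neighbour *Peg10*, a gene derived from a retrotransposon, was at 0.203 and 1.20 CPM on 10 and 43 counts. Both were also higher in the Enpp2 Serpine2 cluster, *Sgce* at 11.4 and 25.6 CPM and *Peg10* at 1.15 and 7.53 CPM. There 17 genes passed, 3 were called as higher, with *Airn* the third, and 2 as lower, *Dlk1* and *Slc22a18*. In macrophage-like cells 13 genes passed and 0 were called. The medians were -0.03, -0.07 and -0.05 in tumor cell-like, Enpp2 Serpine2 and macrophage-like cells.

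The insulin-like growth factor pathway was present in all 3 classes through other genes than *Igf2*. In fibroblast-like cells 11 of 16 genes passed. *Igfbp5*, which encodes a binding protein for the growth factors, was called as lower, at 604 and 181 CPM with a log2 ratio of -1.73 (-2.07 to -1.41), and *Igfbp2* and *Pappa* were called as higher on 12 and 25 and on 8 and 14 counts. The most counted genes, *Igfbp7* at 5035 and 5506 CPM and *Igfbp4* at 1849 and 2430 CPM, were not called, and *Igf2r*, the receptor that clears *Igf2* protein, was at 167 and 109 CPM with a log2 ratio of -0.61 (-1.10 to -0.14). In tumor cell-like cells 14 genes passed and 0 were called, with *Igfbp4* at 770 and 775 CPM, *Igf2bp2* at 87.0 and 89.2 CPM and *Igf1r* at 52.5 and 46.1 CPM. In macrophage-like cells 13 passed and 0 were called, and *Igf1* was at 32.5 and 48.9 CPM with a log2 ratio of 0.59 (0.45 to 0.73). In the Enpp2 Serpine2 cluster 14 passed and *Pappa* was called as lower.

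Genes that keep imprints or act on *H19*, such as *Ctcf*, *Trim28*, *Dnmt1*, *Myc* and *Hif1a*, were not called in any of these groups, where 12, 10, 11 and 12 of the 12 passed in tumor cell-like, fibroblast-like, macrophage-like and Enpp2 Serpine2 cells. Their medians were -0.02, -0.03, -0.31 and 0.16. *Trim28* was at 195 and 190 CPM in tumor cell-like cells, and *Hif1a* at 157 and 237 CPM in fibroblast-like cells.

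Of 10 proliferation genes, 9 passed in fibroblast-like cells, and *Cdk1*, *Ccnb1*, *Birc5* and *Ube2c* were called as lower in the library labelled *Lmo7*-/-, beside 4.96% of all genes, with a median log2 ratio of -0.99 over those that passed. The other 5, *Mki67*, *Top2a*, *Stmn1*, *Hmgb2* and *Pcna*, were less than 2-fold apart. *Cdk1*, the mitotic kinase gene, was at 85.8 and 18.5 CPM on 54 and 10 counts. In tumor cell-like, macrophage-like and Enpp2 Serpine2 cells all 10 genes passed, 0 were called, and the medians were 0.09, -0.33 and 0.25. The part of proliferation in the *H19* and *Plagl1* values of fibroblasts was not tested.

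Across 14 sums, 7 classes in each library, the gene with the pattern most like that of *H19* was *Ecrg4* (r = 0.947 on the log2 scale of CPM plus 1), followed by *Galnt17* and *Pdgfrl* (both r = 0.936), out of 11202 genes. For *Meg3* they were *Rarres2* (r = 0.983), *Adamts2*, the gene for an enzyme that trims procollagen (r = 0.976), and *Islr* (r = 0.974), and for *Plagl1* they were *Praf2* (r = 0.931), *Nrep* (r = 0.923) and *Sar1a* (r = 0.906). Among the members, *H19* was closest to *Peg3* (r = 0.850) and least like *Igf2* (r = 0.487) over these sums. They left out the unnamed clusters and the mast-like cells. Of the counts of the *Lmo7*+/+ library, the Enpp2 Serpine2 cluster alone held 41.0% for *H19* and 54.8% for *Igf2*. *Peg3* had only 49 and 40 counts in all kept cells. The sums of a class share a cell type and those of a library share its depth, so the 14 points are not independent.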

How the data were processed

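Live cells from MC38 tumors were measured by droplet single-cell RNA-seq, 1 library per host genotype. The authors deposited raw UMI counts per gene and droplet. Per the submitters' processing notes these were made with Cell Ranger 2.1.1 on mm10, and the end of the RNA that was read is not given in the sources used here. Nothing had been normalized, and droplets had already been called as cells.

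Droplets under 500 genes or 1000 UMIs, or with more than 15% mitochondrial counts, were left out. The rest were scaled to 10000 counts per cell and reduced to 2000 variable genes (without the members and the other imprinted genes listed) and 30 principal components. They were clustered with the Louvain algorithm (20 neighbours, resolution 0.5), which gave 18 clusters. Scrublet marked 382 and 281 cells as doublets, which were kept. A cluster was called "-like" from its marker list (relative level of at least 0.15, at least 3 markers at 5 CPM), and was left unnamed where another lineage reached 0.55 of that level or led its 10 top genes. The data had been seen when these limits were set, and names rebuilt in this way may differ from those of the study. Fibroblast-like cells were clustered again (15 principal components, resolution 0.8). Library totals were 98582479 and 80648345 UMIs.

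Counts were summed by class and library. CPM has exact Poisson intervals, and shares and the split of counts behind a ratio have exact binomial (Clopper-Pearson) intervals. Genes named were all 7 members, the 3 most counted genes of each list and class, listed genes at least 2-fold apart with at least 100 counts, and the 3 genes most like each member with at least 500 counts. Others were named after their values were seen. The members and lists were chosen with earlier results of these data known. The ratios were tested on simulated data. Alternatives covered the filters, doublets, clustering, library size (TMM from edgeR, or without the 10 most abundant genes), per-cell means, cells without tumor marker UMIs, depth, thinning and the minimum count.

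Used were R 4.3.3 (edgeR 4.0.16) and Python 3.11.15 (igraph 0.11.9, matplotlib 3.10.9, numpy 2.4.6, scanpy 1.11.5, scikit-learn 1.9.0, scipy 1.17.1).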

Additional observations from a re-analysis of the deposited data

Results flagged for a closer look

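*H19* had a higher level in mast-like cells of the library labelled *Lmo7*-/- (log2 ratio 1.12) and a lower one in tumor cell-like (-0.74), fibroblast-like (-3.28) and macrophage-like cells (-2.74). The mast-like values rest on 7 and 21 cells, and the difference between the classes was not tested, since there was 1 library per genotype.

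*Meg3* was higher in endothelial-like cells of that library (3.95) and lower in its fibroblast-like cells (-0.41), on 2 and 26 endothelial counts. *Plagl1* was higher in macrophage-like cells (0.87) and lower in fibroblast-like cells (-3.02). Neither difference was tested.

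The droplets left out by the cell filters also held *H19*, 143 counts in 2666 droplets of the *Lmo7*+/+ library and 99 counts in 3303 droplets of the other, above the 3 counts that a count of 0 allows. Their levels were 37.3 and 22.6 CPM.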

How the results depend on the processing

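No paired analysis was possible because there was 1 library per genotype. In tumor cell-like, fibroblast-like and macrophage-like cells, the classes where alternatives were run, the log2 ratio of *H19* between the libraries stayed below 0 in each of them, and *H19* stayed higher in fibroblast-like and lower in macrophage-like than in tumor cell-like cells. Chosen after the data were seen were leaving out the 3 cells with the most *H19*, leaving out 2 fibroblast subclusters, and adding the Enpp2 Serpine2 cluster to the tumor cells. The cause of the moves below was not tested. Depth limits what 119 and 92 fibroblast-like cells can show.

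For *H19* between the libraries, the tumor cell-like ratio was -0.51 with 20 principal components, -0.50 with imprinted genes used for clustering, -1.14 as a mean over cells and -1.09 without the 3 highest cells. The fibroblast-like ratio was -2.79 as a mean over cells, -2.55 in cells without a tumor marker UMI, -1.35 in the shallower cells (up to the median depth) and -3.78 without the 3 highest. The macrophage-like ratio was -1.77, -1.10 and -1.85 as a mean over cells, in the shallower cells and without the 3 highest.

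Between classes (*Lmo7*+/+ library, then the library labelled *Lmo7*-/-), the fibroblast over tumor cell log2 ratio of *H19* was 6.24 and 3.70. It became 5.15 and 2.50 at resolution 0.2, 5.88 and 3.20 with 20 principal components, 5.82 and 3.13 with imprinted genes used, 5.18 and 2.79 without doublets, 5.87 and 3.25 with strict filters, 6.72 and 4.91 without tumor marker UMIs, 5.56 and 4.96 in the shallower cells, and 5.12 and 2.46 with the Enpp2 Serpine2 cluster. In the *Lmo7*+/+ library it was also 5.99 with lenient filters and 5.15 as a mean over cells. The macrophage over tumor cell ratio was -1.28 and -3.28. It became -2.43 and -4.45 at resolution 0.2, -1.60 and -4.01 with 20 principal components, -1.71 and -3.92 with imprinted genes used, -2.39 and -4.12 without doublets, -1.74 and -4.02 with strict filters, -2.10 and -2.46 in the shallower cells, and -2.40 and -4.52 with the Enpp2 Serpine2 cluster. As a mean over cells it was -2.52 in the *Lmo7*+/+ library. At resolution 0.2 and without doublets the tumor cell-like class held the Enpp2 Serpine2 cells.

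Genes at least 2-fold apart numbered 1840 at a minimum of 3 counts and 65 at 100 counts in tumor cell-like, 2622 and 59 in fibroblast-like, and 1504 and 91 in macrophage-like cells, against 339, 559 and 340. The other 43 alternative values of these comparisons, and 143 for single members and shares, moved by less than the counting interval, whereas 21 for single members and shares moved by more. *Igf2* in tumor cell-like cells ranged from -0.65 to 0.74, *Meg3* in fibroblast-like cells from -1.01 to 0.04, *Peg3* there from -2.10 to 0.44, *Grb10* from -1.63 to -0.18 and *Plagl1* from -3.41 to -1.68. *Peg3* in tumor cell-like cells ranged from -0.19 to 0.47 and *Cdkn1c* in fibroblast-like cells from -1.32 to 0.83.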
